A study of Homo sapiens with 12 samples.

Results

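MYADM, CSPG4, CEMIP, TPPP and NEDD9 are coding genes, described here in HSC-3, a line of human oral squamous carcinoma cells. Each was read at 2 rows of the gene counts, its own row and the row of an annotated gene whose exons lie over its exons on the other strand, called the opposite row. The members are therefore 10 rows out of 60675, and all 10 were among the 14911 rows with enough reads to be tested. The 5 pairs were chosen by the counts themselves, since their opposite rows were much higher after cyclopiazonic acid (CPA) and lower again when synta-66 was present. For that reason the values in those comparisons describe the choice and carry no test. Each of the 3 groups had 4 libraries. The first was left untreated, the next had 25 µM CPA for 3 hours, and the last had the same CPA together with synta-66, at a dose that the labels leave out. Synta-66 without CPA was not analysed here. All groups are 1 cell line, and the labels name no separate cultures behind the replicate libraries, so p-values measure only the spread between these libraries, which may be technical.

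CPA blocks the SERCA pump that refills the endoplasmic reticulum with calcium. When these stores empty, STIM proteins open ORAI channels in the plasma membrane and calcium enters the cell, which is called store-operated calcium entry. Synta-66 inhibits ORAI channels. Calcium that enters this way is known to activate calcineurin and its NFAT transcription factors and to act on the cytoskeleton and on cell adhesion. The 5 genes have roles at the cell surface and in the cytoskeleton. MYADM is a membrane protein with MARVEL domains found in ordered membrane regions, and CSPG4 (NG2) is a chondroitin sulfate proteoglycan of the cell surface. CEMIP takes part in the breakdown of hyaluronan, TPPP bundles microtubules, and NEDD9 is a CAS family scaffold of focal adhesions. Of the genes annotated opposite them, MESD is a chaperone of LDL receptor-related proteins and CEP72 is a centrosome protein.

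Reads assigned to genes numbered 2819486 to 5458858 per library, which was 3.58% to 9.4% of the uniquely aligned reads. The 2 mitochondrial ribosomal RNAs took 0.165% to 53.5% of the gene reads, and 3 libraries (untreated 3, and CPA with synta-66 1 and 4) were the richest in them at 39.6% to 53.5%. Values are given below without these 3 libraries where they differ. Squamous epithelium markers summed to 7040 to 8709 CPM at their own rows over all libraries, but nearly all of this was the KRT8 row (means of 7261, 7669 and 8299 CPM in untreated, CPA and synta-66 libraries), which is also the row opposite KRT18. KRT5 had 23.3, 23.8 and 16.7 CPM and KRT14 7.28, 7.45 and 4.22 CPM. The fibroblast, pericyte and endothelial lists each summed to 1.29 CPM or less in every library, with COL3A1, DCN, LUM, PDGFRB and KDR at 0 in all of them. Melanocyte markers summed to 177 to 236 CPM with TYR and DCT at 0, mostly at the PMEL row (170, 197 and 171 CPM), which lies opposite CDK2, and immune markers to 2.18 to 8.80 CPM with CD3E and MS4A1 at 0. CPM are counts relative to the gene reads of the library, with library sizes scaled by TMM.

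The 5 pairs differ in how the 2 rows overlap (coordinates are of GENCODE 44 on GRCh38, from 1). MYADM (ENSG00000179820, chromosome 19, 53864763 to 53876435, plus strand) has its opposite row in ENSG00000232220, a long noncoding RNA at 53874626 to 53876049. All 423 exon bases of that row lie in the MYADM 3′ untranslated region. CSPG4 (ENSG00000173546, chromosome 15, 75674322 to 75712848, minus strand) is faced by ENSG00000260892 at 75676227 to 75677162, whose 563 exon bases all lie in CSPG4 coding sequence. CEMIP (ENSG00000103888, chromosome 15, 80779343 to 80951776, plus strand) shares 224 exon bases with MESD (ENSG00000117899, 80946289 to 80989828), and 203 of them are CEMIP coding sequence. TPPP (ENSG00000171368, chromosome 5, 659862 to 693352, minus strand) shares 404 exon bases with CEP72 (ENSG00000112877, 612340 to 667168), of which 247 are coding in TPPP and 157 lie in its 3′ untranslated region. NEDD9 (ENSG00000111859, chromosome 6, 11183298 to 11382348, minus strand) shares 53 bases with ENSG00000247925 (11173452 to 11259099), all of them coding in NEDD9 and only 7.53% of that row's exons. A read at an opposite row may come from the gene annotated there or from the coding gene across from it, and the counts alone cannot tell these apart. MESD and CEP72 are coding genes of their own with 7455 and 3590 exon bases. Own rows carry the same limit, since the strand direction of the kit is not given: TUBB, an abundant tubulin, had 14.5, 12.1 and 8.68 CPM at its own row in untreated, CPA and synta-66 libraries and 17904, 17778 and 15833 CPM at the row opposite it. A level or a fall at an own row below is therefore that of the row, and need not be that of the gene's transcript.

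**Figure D1:**
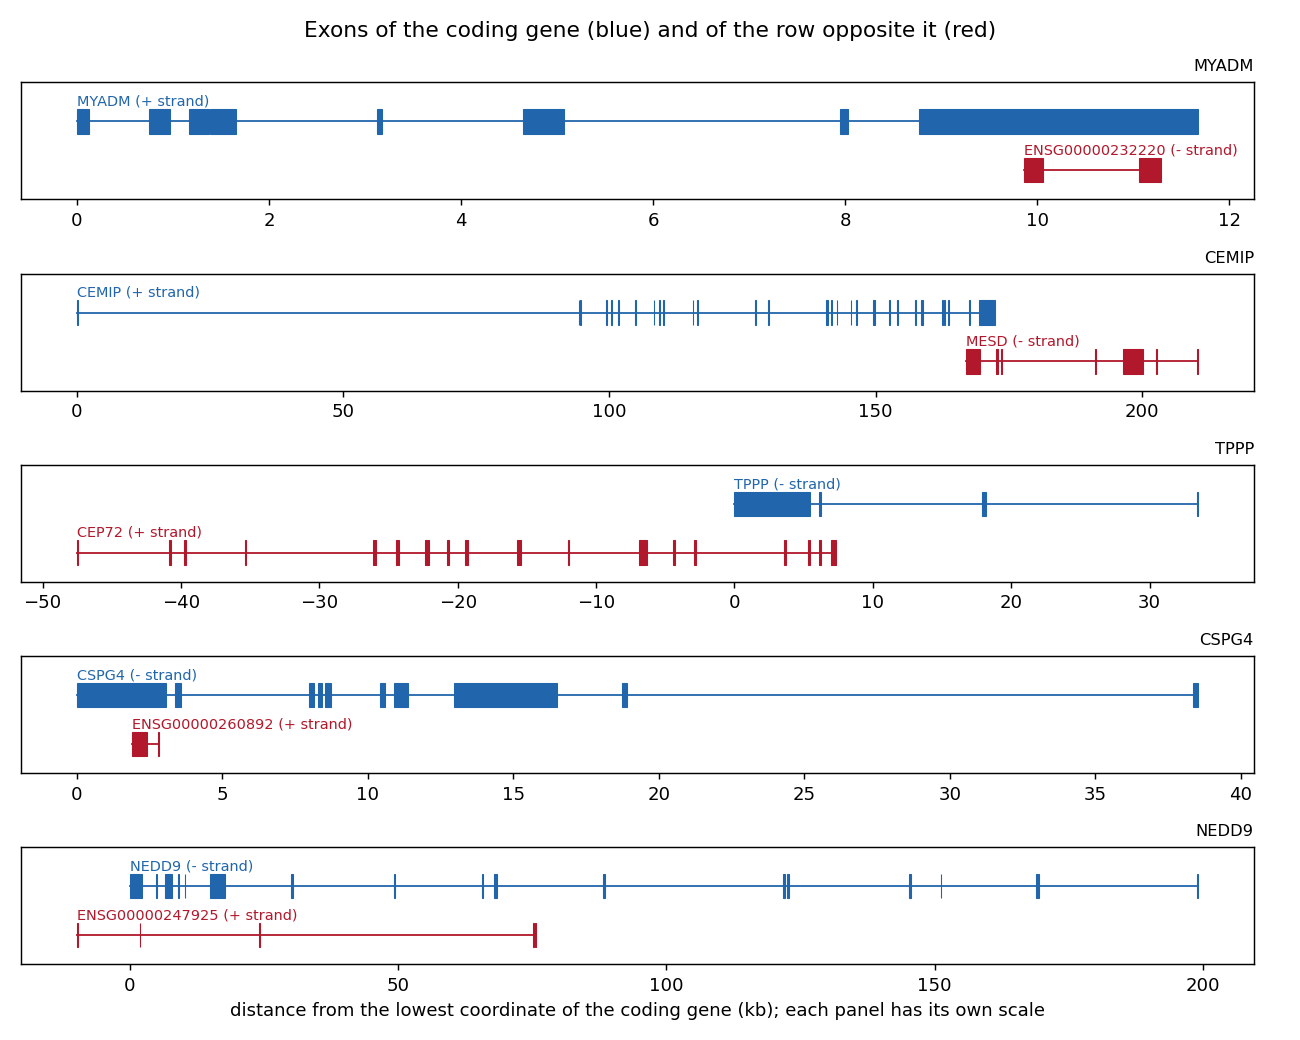
Exons of each coding gene (blue) and of the gene annotated opposite it (red), along the distance from the lowest coordinate of the coding gene in kb, with a separate scale in each panel. The opposite rows of MYADM and CSPG4 lie wholly within the coding gene's exons, whereas those of CEMIP, TPPP and NEDD9 share 224, 404 and 53 bases with it.

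The NEDD9 overlap is short enough to print, and it is the stretch by which that opposite row can read NEDD9 coding sequence (chr6:11185166-11185218, minus strand, GRCh38).
NEDD9 overlap: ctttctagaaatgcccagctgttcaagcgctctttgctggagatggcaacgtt

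Promoters of the 5 coding genes are shown for description only. That the opposite rows moved together is how they were chosen, and shared control of the genes was not tested. The promoters are from RefSeq on GRCh38.p14, each with 250 bases before and 50 after a start site. Where a gene has several starts the one nearest the opposite row is printed. They lie at chr19:53869141-53869440 (plus strand) for MYADM, chr15:75712799-75713098 (minus) for CSPG4, chr15:80779120-80779419 (plus) for CEMIP, chr5:693303-693602 (minus) for TPPP and chr6:11232619-11232918 (minus) for NEDD9. Capitals mark a TATAAA match on either strand and a CArG box, the sequence known to bind serum response factor.
MYADM: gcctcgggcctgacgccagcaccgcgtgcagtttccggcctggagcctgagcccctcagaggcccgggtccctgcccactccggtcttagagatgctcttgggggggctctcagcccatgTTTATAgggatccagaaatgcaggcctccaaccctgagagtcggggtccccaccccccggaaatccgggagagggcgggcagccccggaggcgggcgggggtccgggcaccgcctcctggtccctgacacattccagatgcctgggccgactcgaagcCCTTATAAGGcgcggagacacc
CSPG4: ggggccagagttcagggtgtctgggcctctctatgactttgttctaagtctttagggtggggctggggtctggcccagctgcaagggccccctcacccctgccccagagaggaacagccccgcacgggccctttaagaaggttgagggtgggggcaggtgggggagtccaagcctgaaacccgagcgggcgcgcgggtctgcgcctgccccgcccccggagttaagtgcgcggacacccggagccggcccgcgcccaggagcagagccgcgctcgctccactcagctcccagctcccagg
CEMIP: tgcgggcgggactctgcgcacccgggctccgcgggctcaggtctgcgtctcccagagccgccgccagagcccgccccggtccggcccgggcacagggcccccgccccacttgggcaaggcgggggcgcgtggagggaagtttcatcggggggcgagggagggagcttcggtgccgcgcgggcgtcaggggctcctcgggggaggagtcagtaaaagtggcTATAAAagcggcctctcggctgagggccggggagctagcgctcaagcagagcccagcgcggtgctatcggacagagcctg
TPPP: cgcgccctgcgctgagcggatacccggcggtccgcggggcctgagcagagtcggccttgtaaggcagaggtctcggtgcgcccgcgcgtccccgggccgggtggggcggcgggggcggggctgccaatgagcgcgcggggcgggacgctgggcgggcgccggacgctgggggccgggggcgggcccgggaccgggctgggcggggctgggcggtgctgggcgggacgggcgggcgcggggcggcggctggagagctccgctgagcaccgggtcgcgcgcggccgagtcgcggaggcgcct
NEDD9: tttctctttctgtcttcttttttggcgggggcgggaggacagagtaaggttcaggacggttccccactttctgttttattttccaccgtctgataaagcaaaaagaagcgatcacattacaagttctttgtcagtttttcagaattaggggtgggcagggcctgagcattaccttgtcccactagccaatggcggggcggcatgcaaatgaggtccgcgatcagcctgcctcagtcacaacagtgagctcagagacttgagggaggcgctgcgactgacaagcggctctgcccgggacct

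Both strands were searched for CArG boxes and for the TATA box letters TATAAA. Also searched were GGAAA, the core that NFAT factors bind, the cyclic AMP response element TGACGTCA, and the AP-1 site TGANTCA. In the MYADM promoter printed a CArG box, CCTTATAAGG, began 28 bases after the start, and 1.29% of the 35116 promoters in the table held one. Of the 3 MYADM promoters listed, only the printed one held a CArG box, TATAAA or GGAAA. CEMIP had TATAAA 30 bases before its start, where such boxes are usually found, and MYADM had it on the other strand 130 bases before, against 11.5% of all promoters. GGAAA was found in the MYADM and NEDD9 promoters printed, against 61.2% of all, and no match to TGACGTCA or TGANTCA was found in any of the 9 promoters that the table lists for the 5 genes, against 1.85% and 7.71%. The share of G and C was 83% in the TPPP promoter, 73% in CEMIP, 69.3% in CSPG4, 68.3% in MYADM and 52.7% in NEDD9, and the median over all promoters was 58.7%. A match is a description of the letters only.

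The row opposite MYADM had the most reads of the 5. It stood at 15.4, 11.4, 13.4 and 12.0 CPM in untreated cells, at 255, 299, 315 and 283 CPM after CPA, and at 10.1, 9.01, 17.0 and 18.7 CPM after CPA with synta-66. Every CPA library was far above every other library, and the untreated and synta-66 libraries overlapped. Of the tested rows, 5.7% had all CPA libraries above the untreated ones and 6.84% all synta-66 libraries below those with CPA. The means were 13.1 ± 1.78, 288 ± 25.5 and 13.7 ± 4.84 CPM (SD, n = 4), a log2 difference between CPA and untreated of 4.46 ± 0.15 (SE), or 22-fold. With synta-66 the row differed from CPA alone by -4.42 ± 0.15 on the log2 scale and from untreated cells by 0.04, with a 95% interval of -0.31 to 0.39. The own row of MYADM held 15 reads over all 12 libraries: 1, 0, 1 and 0 in untreated cells, 5, 2, 6 and 0 after CPA, and 0 in each synta-66 library. It was tested only because 2 CPA libraries reached 5 reads, and no fold change is given for it.

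For CSPG4 both rows differed between groups, and not in the same way. The opposite row stood at 2.5, 0.80, 3.13 and 2.05 CPM untreated, 7.48, 15.3, 13.9 and 14 CPM with CPA, and 0.811, 1.13, 1.47 and 0.435 CPM with CPA and synta-66. The CPA libraries lay above all others, while the untreated and synta-66 libraries overlapped. The log2 difference was 2.60 ± 0.43 (SE) for CPA against untreated and -3.59 ± 0.48 for synta-66 with CPA against CPA. Against untreated cells the synta-66 libraries differed by -0.98 with a 95% interval of -2.06 to 0.09, and by -0.42 without the 3 libraries rich in mitochondrial rRNA. These rest on few reads, 14 over the 4 synta-66 libraries and 33 over the untreated ones.

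The own row of CSPG4 did not follow its opposite row with CPA, and fell with synta-66. It stood at 7.91, 10.4, 10.9 and 10.3 CPM untreated, 3.61, 11.6, 12.1 and 6.48 CPM with CPA, and 1.62, 2.70, 0.737 and 1.74 CPM with CPA and synta-66. All 4 synta-66 libraries were below every library of the other groups, and the other groups overlapped. All synta-66 libraries lay below the untreated ones at 4.65% of the tested rows. In edgeR's quasi-likelihood fit the synta-66 libraries differed from untreated cells by -2.5 ± 0.44 (SE, log2), with a 95% interval of -3.36 to -1.63 and an adjusted p of 0.00013, and from CPA alone by -2.28 ± 0.44. Of the tested rows, 2.9% were called in either direction between synta-66 with CPA and untreated cells. Libraries synta-66 2 and 3, which were not rich in mitochondrial rRNA, were as low as the others, and without the 3 rich libraries the difference from untreated cells was -2.42. CPA against untreated gave -0.21 ± 0.36 at this row.

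The row opposite CEMIP, which is MESD, stood at 2.08, 1.20, 2.5 and 1.46 CPM untreated, 32.5, 39.5, 39.5 and 31.9 CPM with CPA, and 0.811, 0.901, 1.97 and 3.48 CPM with CPA and synta-66. The CPA libraries were again apart from all others, and the untreated and synta-66 ranges overlapped. Means were 1.81 ± 0.589, 35.9 ± 4.21 and 1.79 ± 1.24 CPM (SD, n = 4), and the log2 difference was 4.31 ± 0.32 (SE) for CPA against untreated, or 19.8-fold. With synta-66 it was -4.39 ± 0.33 against CPA and -0.08 against untreated cells, with a 95% interval of -0.93 to 0.78. At CEMIP's own row the levels were 15.2, 16.8, 12.5 and 12.6 CPM untreated, 21.9, 31.4, 20.3 and 19.9 CPM with CPA, and 21.9, 11.9, 20.9 and 18.7 CPM with synta-66 added. Here too all CPA libraries lay above the untreated ones, by a log2 difference of 0.70 ± 0.22, while the synta-66 libraries overlapped both groups and differed from CPA by -0.36 ± 0.22. Since the overlap is mutual, CEMIP's own row is also the row opposite MESD.

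The row opposite TPPP, which is CEP72, had the largest difference of the 5. It held 10, 0, 1 and 2 reads in the untreated libraries, 85, 132, 151 and 105 with CPA, and 1, 1, 4 and 2 with CPA and synta-66. In CPM these were 2.08, 0, 0.313 and 0.586 untreated, 21.9, 30.7, 30.9 and 22.7 with CPA, and 0.406, 0.225, 0.983 and 0.870 with synta-66 added. The row was close to empty in both other groups and clear of them in every CPA library. The log2 difference of CPA from untreated was 5.03 ± 0.45 (SE), or 32.6-fold, and 6.50 without untreated 1, which held 10 of the 13 untreated reads. With synta-66 the difference from CPA was -5.38 ± 0.49, and the difference from untreated cells was -0.36, with a 95% interval of -1.75 to 1.04, which turned to 1.11 without untreated 1.

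TPPP's own row, which is by the same overlap the row opposite CEP72, moved little and in the other direction. Its levels were 69.7, 72.6, 58.1 and 55.4 CPM untreated, 40.8, 67.7, 36.6 and 48.3 CPM with CPA, and 64.5, 67.6, 60.2 and 57.0 CPM with CPA and synta-66. CPA 2 was within the range of the other groups and the other 3 CPA libraries were below it, so that the groups overlapped. The log2 difference was -0.41 ± 0.15 (SE) with CPA, 0.37 ± 0.15 for synta-66 with CPA against CPA, and -0.04 against untreated cells, with a 95% interval of -0.33 to 0.25. Without CPA 2 the difference of CPA from untreated was -0.61.

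NEDD9's opposite row was higher with CPA and stayed above untreated cells when synta-66 was present. It stood at 8.54, 10.2, 9.38 and 10.3 CPM untreated, 54.7, 50.2, 50.8 and 41.4 CPM with CPA, and 13.4, 30.2, 21.9 and 19.6 CPM with CPA and synta-66. The 3 groups did not overlap anywhere, with every synta-66 library between the untreated and the CPA libraries. The log2 difference was 2.36 ± 0.20 (SE) with CPA, -1.18 ± 0.19 for synta-66 with CPA against CPA, and 1.18 ± 0.21 against untreated cells, a 2.26-fold difference with a 95% interval of 1.70 to 3.01. Without the 3 libraries rich in mitochondrial rRNA the last 2 values were -0.91 and 1.44. All libraries with synta-66 lay above the untreated ones at 4.55% of the tested rows. The own row of NEDD9 held 3.75, 2.00, 4.38 and 4.39 CPM untreated, 3.61, 3.95, 2.87 and 2.37 CPM with CPA and 4.06, 1.35, 0.983 and 3.48 CPM with synta-66 added. These ranges overlapped in all comparisons, and the log2 difference was -0.17 ± 0.53 with CPA, -0.45 ± 0.56 for synta-66 with CPA against CPA, and -0.62 against untreated cells, with a 95% interval of -1.73 to 0.49. Synta-66 2 and 3 were below every untreated and CPA library, and without the 3 libraries rich in mitochondrial rRNA the last 2 values were -1.42 and -1.48, neither of them called. The intervals are wide at this level, and no change of NEDD9's own row was called at this depth.

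**Figure D2:**
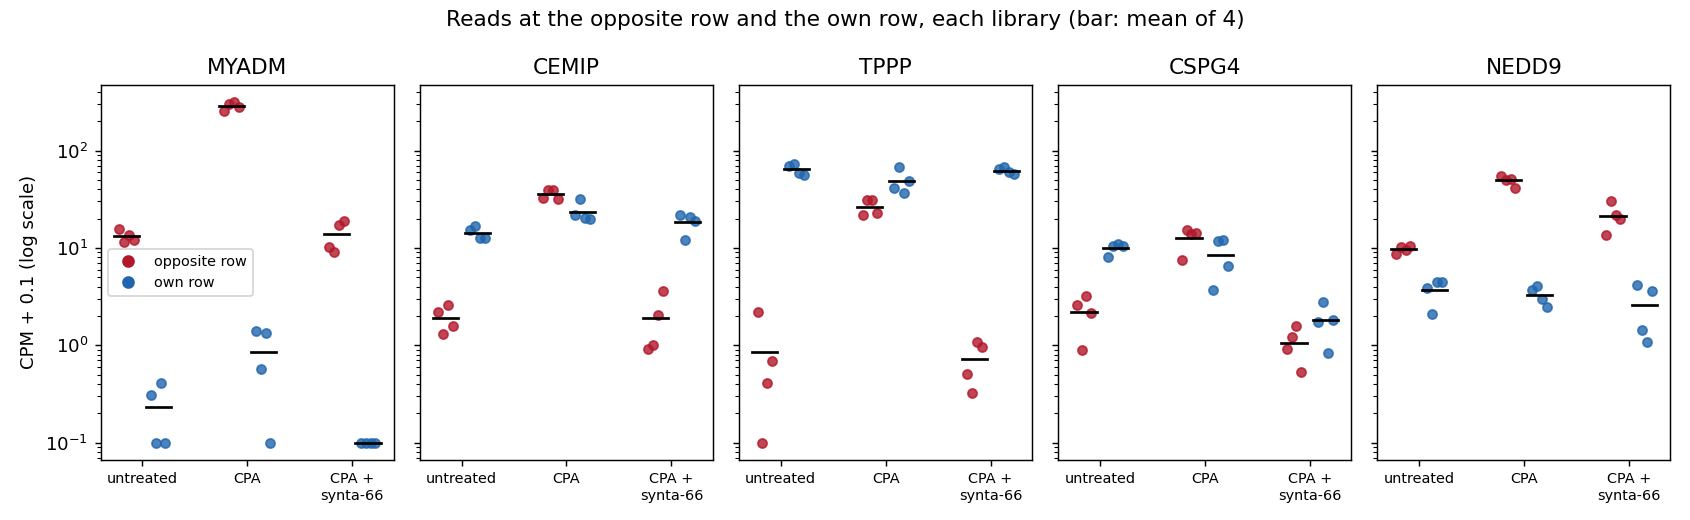
CPM + 0.1 on a log axis at the opposite row (red) and own row (blue) of each gene in the 12 libraries, where points are libraries and bars are means of 4. The CPA libraries stand above all others at each of the 5 opposite rows, and the own row of CSPG4 is lowest in the libraries with synta-66.

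All 5 opposite rows were called higher with CPA and lower when synta-66 was added, which is how they were chosen. Of the tested rows, 1.8% were called higher with CPA, 2.82% lower with synta-66 against CPA, and 0.872% both (130 rows). Both comparisons use the same CPA libraries, so nothing is read from their opposite signs. Among the 117 such rows with a mean of at least 5 CPM, ordered by their difference with CPA, CEP72 was 1st, the row opposite MYADM 2nd, MESD 3rd, the row opposite CSPG4 5th and the row opposite NEDD9 7th. NR4A1AS (log2 difference 3.47) and PARP12 (2.47) stood between them without being members, and KCNMA1-AS3 (2.16) came next.

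With synta-66, 29.4% of the CPA rise in mean CPM was left at the row opposite NEDD9, and 21.9% to 36.0% with any 1 library left out. At the row opposite MYADM 0.232% was left, at CEMIP -0.0649% and at TPPP -0.481%, and leaving out 1 library turned the sign of each of these. Their ranges were -0.374% to 0.801%, -1.72% to 0.893% and -1.46% to 1.22%. The libraries that did so were synta-66 3 or 4 for MYADM, untreated 1 or 3 or synta-66 1 or 2 for CEMIP, and untreated 1 or synta-66 2 for TPPP. At the row opposite CSPG4 the value was -10.9% (-15.8% to -7.53%), as the synta-66 mean was below the untreated one. Only at the row opposite NEDD9, among the 5, did the 95% interval of the difference between synta-66 with CPA and untreated cells leave out 0. No test compared the rows with each other.

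The order of the CPA levels depended on the length over which reads were counted. Per kb of the row's own exons the CPA means were 681 CPM opposite MYADM, 70.0 opposite NEDD9, 22.5 opposite CSPG4, 7.40 at CEP72 and 4.81 at MESD. Per kb of the overlap alone they were 681 for MYADM, 160 for CEMIP, 65.7 for TPPP and 22.5 for CSPG4, where all reads of the row are taken to lie in the overlap. For NEDD9 the same reckoning gives 930 CPM per kb from 53 bases, which is set mainly by the short overlap. The rows opposite MYADM and CSPG4 have the same value on both scales, as they lie wholly within the overlap.

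The split of reads between the 2 rows of a pair differed by group. Since the opposite rows were chosen for their differences between groups, these shares partly restate that choice and carry no test. At CEMIP the opposite row held 11.4% ± 4.14 (SD, n = 4) of the reads of both rows in untreated cells, 60.8% ± 4.31 with CPA and 8.72% ± 5.10 with synta-66 added. For TPPP the shares were 1.12% ± 1.26, 36.0% ± 6.73 and 1.02% ± 0.634. In these pairs the opposite row went from the smaller part of the reads to a large part with CPA, and no CPA library overlapped the other groups. CSPG4 had shares of 17.5% ± 7.58, 61.6% ± 7.48 and 37.4% ± 20.3, the last resting on 14 reads opposite and 23 own reads over 4 libraries. The NEDD9 shares were 72.8% ± 7.23, 93.9% ± 0.908 and 88.3% ± 9.22, and at MYADM the opposite row held 97.7% or more in every library.

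**Figure D3:**
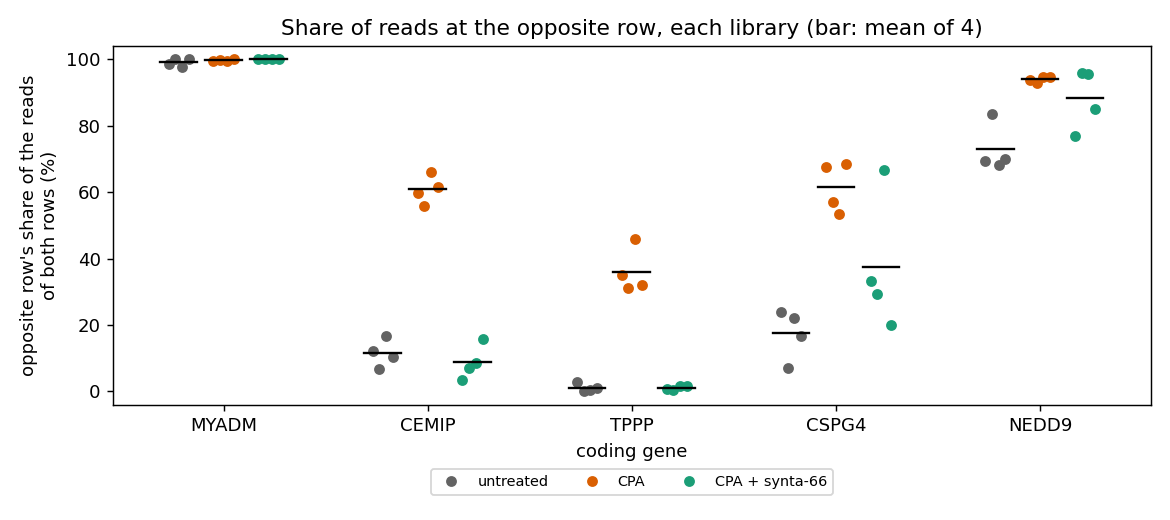
Share of the reads of both rows that lay at the opposite row, in percent, for each gene and library (bars are means of 4). In CEMIP and TPPP the share was 60.8% and 36.0% with CPA and near its untreated level with synta-66 added, while at MYADM nearly all reads were at the opposite row in every group. The shares partly restate how the opposite rows were chosen.

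**Figure D4:**
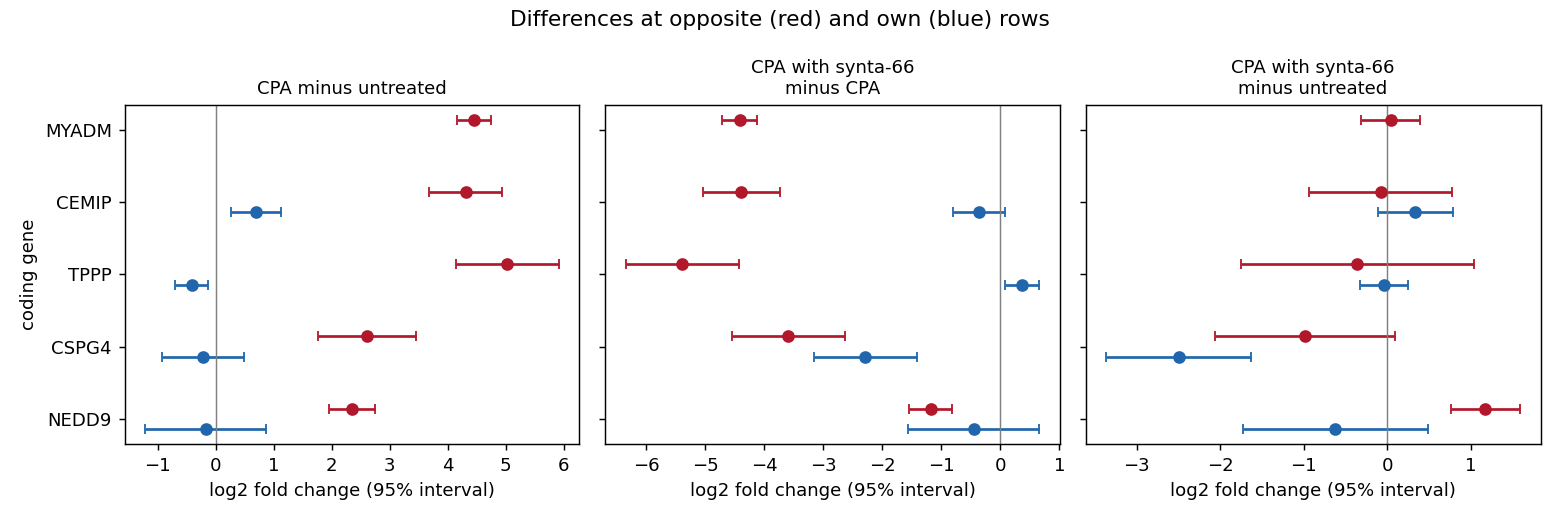
Log2 differences with 95% intervals at the opposite (red) and own (blue) rows in the 3 comparisons, with MYADM's own row left out for its 15 reads. The own rows lie near 0 beside the opposite rows in the CPA comparison, and in the right panel the row opposite NEDD9 is above 0 and the own row of CSPG4 below it.

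Within the CPA group the libraries did not rank alike at every member. CPA 1 was the lowest at the rows opposite MYADM, TPPP and CSPG4 and the highest at the row opposite NEDD9. Mitochondrial rRNA was 9.43% of the gene reads in CPA 1 and 0.165% to 2.21% in the other CPA libraries, and its part in these values was not tested. The opposite rows of MYADM and CEMIP had the closest pattern over the 12 libraries, with Pearson's r of 0.995 for log2(CPM + 1). The other pairs of opposite rows had r from 0.981 to 0.989 among MYADM, CEMIP and TPPP, 0.927 to 0.937 between those and CSPG4, and 0.706 to 0.847 with NEDD9. These points share their libraries and the group differences by which the rows were chosen, so the values only describe likeness.

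Searching the 6356 rows of mean 5 CPM or more for those most like each member gave another member as the nearest row for MYADM, CEMIP and TPPP by Pearson's r. The first row outside the members for all 3 was ENSG00000257042 (chromosome 12, 27958517 to 27969813, plus strand), which overlaps 353 exon bases of PTHLH, the gene of parathyroid hormone-related protein. Its r was 0.988 with MYADM, 0.981 with CEMIP and 0.971 with TPPP, and it was the third nearest to CSPG4 at 0.951. By Spearman's rho it was far down the order, 72nd for MYADM (0.769), 65th for CEMIP (0.804) and 176th for TPPP (0.678), so its place rests on the choice of Pearson's r. It stood at 360, 382, 407 and 385 CPM untreated, 1382, 1442, 1612 and 1510 CPM with CPA, and 312, 335, 340 and 338 CPM with synta-66 added. It held more reads than the rows opposite the 5 genes, with a smaller ratio of CPA to untreated, 3.88.

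For CSPG4 the nearest rows were WAKMAR2, opposite TNFAIP3 (r = 0.961), and NDUFB9, opposite TATDN1 and MTSS1 (r = 0.954). NDUFB9 is a subunit of respiratory complex I. Its row overlaps exons of TATDN1 and MTSS1 on the other strand, so its reads may come from any of these genes. WAKMAR2 was at 62.3 ± 7.56, 114 ± 3.64 and 47.3 ± 10.2 CPM (SD, n = 4) in untreated, CPA and synta-66 libraries, and NDUFB9 at 57.2 ± 6.41, 115 ± 12.7 and 52.8 ± 2.74 CPM. The 3 rows nearest to NEDD9's were other ones. They were ENSG00000263171 opposite KCTD11 (r = 0.973), ENSG00000254680 opposite MICAL2 (r = 0.971) and MSC-AS1 opposite TRPA1 and MSC (r = 0.963). By Spearman's rho the KCTD11 row was 1st, MSC-AS1 2nd and the MICAL2 row 14th. Means in untreated, CPA and synta-66 libraries were 90.1, 170 and 116 CPM for the KCTD11 row and 352, 672 and 463 CPM for the MICAL2 row. For MSC-AS1 they were 20.4, 84.9 and 32.3 CPM. Like the row opposite NEDD9 these rows stayed above untreated cells with synta-66. They were picked by their likeness to that row over the same libraries, so this shared pattern follows from the search.

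**Figure D5:**
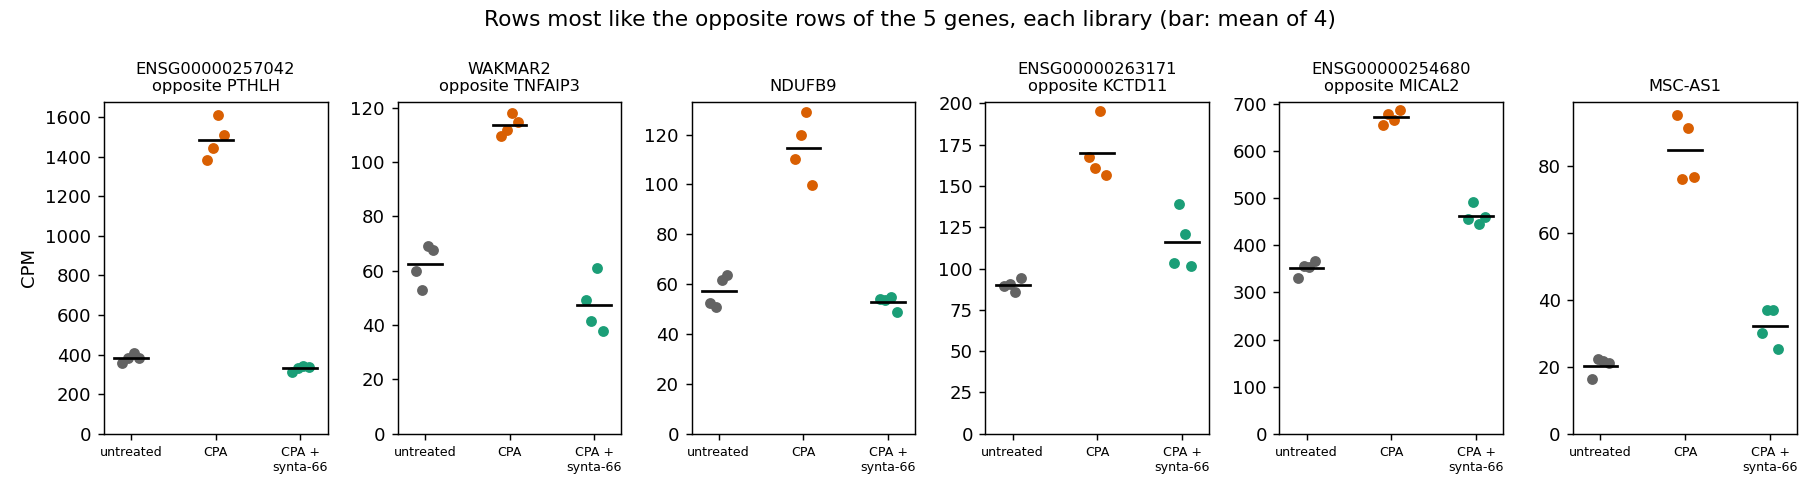
CPM per library (points) and mean of 4 (bars) of the 6 rows outside the members that were among the 3 most like an opposite row, each panel with its own axis from 0. The row opposite PTHLH, WAKMAR2 and NDUFB9 were near or below their untreated level with synta-66, and the rows opposite KCTD11 and MICAL2 and MSC-AS1 lay between their untreated and CPA levels. The rows were picked by likeness to the opposite rows over these libraries, so these patterns follow from the search.

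Around the 5 pairs, within 100 kb, lay 56 other rows, of which 20 were tested and 1 was called in each of the 3 comparisons. Over all tested rows, 1.8% were called higher with CPA, 2.82% lower with synta-66 against CPA, and 1.24% lower with synta-66 against untreated cells. ENSG00000271781 (chromosome 5, 675826 to 676616) lies within the body of TPPP on the other strand, without overlapping its exons. It had 0 reads in every untreated library, 2, 8, 2 and 13 with CPA, and 0, 5, 0 and 0 with synta-66 added, and was called higher with CPA (edgeR, adjusted p = 0.0476). It passed the filter only through the CPA group. The call was lost without any one of the untreated libraries (edgeR adjusted p of 0.0847 to 0.117) and without the 3 libraries rich in mitochondrial rRNA (0.0827). With the replicate number as a further term the call was also lost (0.0713), and under DESeq2 the row had no adjusted p. Some rows near the members had reads mainly with CPA but were not called. ENSG00000259649, within the body of CEMIP on the other strand, had 4, 6, 4 and 6 reads with CPA and 0 in all other libraries. MYADM-AS1 had 14, 7, 3 and 3 with CPA against 0 to 3 in the others. DNM1P35, near CSPG4 and on its strand, had means of 0.234, 2.54 and 0.225 CPM in untreated, CPA and synta-66 libraries. These rows were chosen after their values were seen. SLC9A3, a sodium and proton exchanger 3′ of TPPP on chromosome 5, fell with synta-66, from 33.5 ± 4.22 CPM with CPA to 13.6 ± 4.74 (log2 difference -1.26 ± 0.21, edgeR adjusted p = 4.55e-05). Against the untreated 26.8 ± 5.36 CPM the adjusted p was 0.004, and 0.0593 without the 3 libraries rich in mitochondrial rRNA. The SLC9A3 row overlaps 839 exon bases of EXOC3 on the other strand, and its reads may come from either gene.

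Other genes of the members' pathways were taken from 9 lists. At own rows 107 list genes were tested, and 1 was called higher and 1 lower with CPA, 2 higher and 3 lower with synta-66 against CPA, and 2 higher and 1 lower with synta-66 against untreated cells. At opposite rows 57 were tested, with 6 higher and 1 lower, 1 higher and 7 lower, and 1 higher and 2 lower in the same order. Over all tested rows the shares called higher and lower were 1.8% and 1.05%, 1.94% and 2.82%, and 1.66% and 1.24%. Over the 3991 coding genes read at an opposite row, the shares were 3.41% and 1.3%, 2.68% and 4.36%, and 2.86% and 1.28%. Median log2 differences were -0.08, 0.02 and -0.08 at own rows and 0.19, -0.11 and 0.05 at opposite rows, beside -0.01, -0.04 and -0.06 over all rows. The 3 comparisons share libraries.

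Among genes of hyaluronan, the substrate on which CEMIP acts, the row opposite CD44, the main hyaluronan receptor, was higher with CPA. It stood at 877 ± 86.4, 1320.4 ± 129 and 856 ± 17.3 CPM in untreated, CPA and synta-66 libraries (log2 difference with CPA 0.59 ± 0.07, edgeR adjusted p = 1.84e-07). This was close to the 1.5-fold minimum, which it missed without CPA 2 (0.52), untreated 1 (0.57), untreated 2 (0.58) or untreated 4 (0.55). HMMR, another hyaluronan receptor, fell at both of its rows with CPA: from 68.9 ± 1.78 to 43.4 ± 2.26 CPM at the opposite row (adjusted p = 0.00017) and from 12.9 ± 4.17 to 5.66 ± 2.06 CPM at the own row (adjusted p = 0.0195), and stood at 69.0 and 12.1 CPM with synta-66 added. The own-row call was lost without CPA 2, CPA 4, untreated 1 or untreated 4 (adjusted p of 0.065 to 0.0924), and the rise back with synta-66 without CPA 2, CPA 4 or synta-66 3 (0.0786 to 0.117). The own row of UGDH, which makes a precursor of hyaluronan, rose with synta-66 from 14.6 ± 3.34 to 25.7 ± 4.67 CPM (edgeR adjusted p = 0.0156). That call was lost without CPA 3, CPA 4, synta-66 2 or synta-66 4 (0.0507 to 0.071), and also without the 3 libraries rich in mitochondrial rRNA (0.164). The row's difference from the untreated 14.1 ± 2.00 CPM (edgeR adjusted p = 0.0159) was lost without synta-66 2, synta-66 4, untreated 2 or untreated 4 (0.0504 to 0.0607) and without the 3 libraries (0.21).

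In the CAS family and focal adhesion list, to which NEDD9 belongs by function, 14 own and 6 opposite rows were tested. EFS, another CAS protein, rose at its opposite row with CPA from 1.99 ± 1.47 to 7.84 ± 2.68 CPM and fell to 1.57 ± 1.66 CPM with synta-66 (edgeR adjusted p = 0.0291 and 0.00633). The first call was lost when CPA 2, 3 or 4 or untreated 1, 2 or 4 was left out (adjusted p of 0.051 to 0.132). VCL, the adhesion protein vinculin, was read opposite at AP3M1, which fell with synta-66 from 33.1 ± 5.88 to 11.9 ± 2.00 CPM (adjusted p = 2.78e-06). Its difference from the untreated 21.5 ± 5.75 CPM (0.0108) was lost without untreated 2 (0.105) or synta-66 2 (0.0501). SH2D3A, an adaptor that binds CAS proteins, fell at its own row with synta-66 from 11.6 ± 3.93 to 2.60 ± 1.89 CPM (adjusted p = 0.00161). The own row of CRKL, an adaptor of CAS signalling, was lower with synta-66 than untreated, 12.1 ± 7.03 against 24.5 ± 3.19 CPM (edgeR adjusted p = 0.0219). That call was lost without synta-66 2, synta-66 4, untreated 1 or untreated 2 (0.0563 to 0.124) and without the 3 libraries rich in mitochondrial rRNA (0.129).

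Of the tubulins and microtubule regulators, among which TPPP acts, 1 row was called: TUBA1C, an alpha tubulin, whose row is also the one opposite TUBA1A. It rose with CPA from 18.2 ± 8.40 to 42.3 ± 9.25 CPM and fell to 14.1 ± 3.34 CPM with synta-66 (log2 differences 1.24 ± 0.22 and -1.62 ± 0.23, edgeR adjusted p = 0.000171 and 2.98e-06). Tubulin genes are near-identical in sequence, so this row may hold reads of others. The row opposite TUBA1C itself stood at 8823, 9126 and 8358 CPM in untreated, CPA and synta-66 libraries and was not called in any comparison. No row of the centrosome list, to which CEP72 belongs by function, was called at 9 own and 7 opposite rows. Of the chondroitin sulfate list that goes with CSPG4, B3GALT6, which adds a sugar to the proteoglycan linker, was called at its own row, lower with synta-66 than with CPA, 0.736 ± 0.690 against 4.26 ± 2.09 CPM (adjusted p = 0.0303). That call was lost without CPA 2, 3 or 4 or synta-66 2 or 3 (0.0572 to 0.123). Among MARVEL domain proteins, the class of MYADM, the own row of OCLN, the tight junction protein occludin, was higher with synta-66 than untreated. It stood at 9.09 ± 2.38 against 2.40 ± 0.962 CPM (edgeR adjusted p = 0.0029).

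In the LDL receptor family, whose folding MESD assists, calls were made at opposite rows only. LRP1, an endocytic receptor, had 7.45 ± 1.81, 19.6 ± 1.03 and 4.64 ± 2.11 CPM at its opposite row in untreated, CPA and synta-66 libraries, so that it rose with CPA and fell with synta-66 (edgeR adjusted p = 0.0011 and 7.47e-06). VLDLR, the very low density lipoprotein receptor, was read opposite at VLDLR-AS1, which had similar means with CPA alone and with synta-66 added: 11.4 ± 2.86, 24.2 ± 2.79 and 23.2 ± 5.19 CPM. It rose with CPA (adjusted p = 0.000827) and differed from untreated also with synta-66 (0.00302, and 0.138 without the 3 libraries rich in mitochondrial rRNA). LRP4, a receptor at the nerve and muscle junction, fell with synta-66 from 14.4 ± 1.57 to 5.95 ± 2.47 CPM at its opposite row (adjusted p = 0.00283). Its difference from the untreated 11.9 ± 2.72 CPM (0.0378) was lost when untreated 1, 2 or 3 or synta-66 1, 2 or 3 was left out (0.0609 to 0.161) and without the 3 libraries (0.0517).

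In the calcium entry and calcineurin list, 20 own and 12 opposite rows were tested and 1 gene was called. PPP3CC, a catalytic subunit of calcineurin, stood at 16.1 ± 3.25, 30.1 ± 4.45 and 16.2 ± 2.07 CPM at its opposite row, a rise with CPA and a fall with synta-66 (edgeR adjusted p = 0.00263 and 0.00271). ORAI1, the channel that synta-66 inhibits, had means of 1.46, 0.978 and 3.38 CPM at its own row in untreated, CPA and synta-66 libraries. STIM1, the calcium sensor of the stores, had 5.23, 4.05 and 3.04 CPM at its own row and 2.95, 4.70 and 5.32 CPM opposite, and ATP2A2, the SERCA pump that CPA blocks, had 8.01, 11.6 and 14.2 CPM at its own row. None of these 3 was called. No gene of the serum response factor list was called at 11 own and 6 opposite rows, with a median log2 difference of -0.15 and 0.32 with CPA.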

How the data were processed

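The deposited values are raw read counts per gene from HTSeq 0.6.1p1 on STAR 2.5.2a alignments to GRCh38 with the Ensembl 84 annotation, counted as a stranded library, per the labels' protocols. They also name FastQC 0.11.5 and Trimmomatic 0.32, while the submitters' processing notes name Trimmomatic 0.36. The kit and its strand direction are not given in the sources used here. Each library had 60675 gene rows, of which 56558 matched GENCODE 44, the source of exons and strands here. The 5 closing rows of unassigned reads counted neither toward library sizes nor in any test. They hold most reads, since 3.58% to 9.4% of the unique alignments were assigned to genes.

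Rows with at least 5 reads in 2 of the 4 libraries of a group were kept, the filter and call thresholds being those of the series' design text. One edgeR 4.0.16 (R 4.3.3) quasi-likelihood fit with TMM scaling used all 12 libraries and the group alone as a term, and p-values were adjusted by Benjamini-Hochberg over 14911 rows. A call needed an adjusted p under 0.05 and 1.5-fold. The SE of a log2 difference is its absolute value divided by the square root of the F statistic of that fit. The 95% intervals are 1.96 SE to each side and are approximate. CPM were computed here from the counts. A coding gene's opposite row is that with most reads among rows overlapping at least 30 of its exon bases, and those of no other coding gene, on the other strand. Genes named besides the members were, by rule, the 3 rows most like each opposite row, called neighbours within 100 kb, up to 4 called genes per list and comparison with a mean of 1 CPM or more, and ORAI1, STIM1 and ATP2A2. The 9 lists and 6 marker lists are printed with their results, and the fibroblast, pericyte and endothelial lists had no tested row. Members and lists were chosen with earlier results of these data known. No pair of libraries agreed within sampling noise (chi-square per degree of freedom of at least 5.26). The fit was tested on simulated counts. Tried in its place were upper-quartile and RLE scaling, DESeq2 1.42.0, scaling without mitochondrial rRNA, no filter, a replicate block, a larger overlap minimum, each library left out, and, chosen after seeing the data, leaving out the 3 libraries with most non-unique alignments, which are also the richest in mitochondrial rRNA, and the share of the CPA rise left without each library.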

Additional observations from a re-analysis of the deposited data

How the results depend on the processing

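The 5 opposite rows were called in both comparisons that chose them under all 19 alternatives. These alternatives reuse the counts by which the rows were chosen, so this adds no support for the differences. In the comparison of synta-66 with CPA against untreated cells, the lower own row of CSPG4 and the higher row opposite NEDD9 were also called under all 19. No member's called value turned in sign. CEMIP's own row became called higher with CPA under DESeq2 (0.70) and without synta-66 2 (0.70), and TPPP's own row lower without CPA 2 (-0.61). Without the 3 libraries with most non-unique alignments, 102 rows in place of 185 were called lower with synta-66 against untreated cells, and that comparison called 1 list gene at own rows in place of 3, 1 at opposite rows in place of 3, and 0 neighbours in place of 1. With CPA against untreated, own rows of list genes called numbered 4 under DESeq2 and 4 with no filter in place of 2, and neighbours 0 under DESeq2. Leaving out 1 library gave 1 to 3 own-row list calls with CPA, 2 to 5 for synta-66 against CPA (5 with all libraries) and 1 to 3 for synta-66 against untreated. At opposite rows the last comparison gave 1 to 3, and neighbours called were 0 to 1 with CPA and 1 to 2 for synta-66 against CPA. Spearman's rho, in place of Pearson's r, moved the row opposite PTHLH from among the 3 rows most like MYADM, CEMIP and TPPP to the 72nd, 65th and 176th place. It was 0.951 between the rows opposite MYADM and CEMIP, 0.923 between those of TPPP and MYADM, and 0.923 between that of CSPG4 and WAKMAR2. The cause of these differences was not tested.

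The replicate numbers are shared by the groups, but same-numbered libraries did not deviate together (r from -0.0237 to 0.0540 over 14911 rows). Many of these rows had few reads, which can lower r, and libraries of different numbers were not compared in this way. Whether the numbers pair the libraries is therefore not known. With the replicate block 283 rows in place of 269 were called higher with CPA, and 0 neighbours in place of 1.

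Depth limits the own rows of MYADM and NEDD9 and the untreated and synta-66 levels of CEP72, which rest on few reads. MYADM's own row could not be tested without CPA 1 or CPA 3.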
